A study of Homo sapiens with 9 samples.

Results

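The comparison was between a pair of activated clones of H2009, an established line of human lung adenocarcinoma cells: 3 arrays of the sgRNA-A clone against 3 arrays of the sgRNA-B clone, 6 of the 9 arrays of the study. All 9 cultures carried CRISPRa, a Cas9 without nuclease activity (dCas9) fused to the activation domains VP64, p65 and Rta (VPR), which a guide RNA brings to a chosen stretch of DNA. sgRNA-A and sgRNA-B are distinct guides, both used to raise the microRNAs encoded at the 14q32 locus. The remaining 3 arrays, from control cells that held the guide vector with no guide in it, gave a reference level for each gene but were no part of the contrast. All cells were grown in medium with blasticidin and received no other treatment. Each guide is represented by 1 clone, so guide and clone cannot be told apart, and the p-values measure the spread between cultures of that clone only.

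Each value is a log2 level of a probe set, so a difference of 1 is a 2-fold difference, and all differences are given as sgRNA-A minus sgRNA-B. Of 24733 probe sets, 23934 had 1 gene symbol, and 23931 genes were tested with limma. A gene is said to differ when its adjusted p (Benjamini-Hochberg over all genes tested) was below 0.05. Correlations between arrays were 0.9970 to 0.9980 within sgRNA-A, 0.9979 to 0.9982 within sgRNA-B and 0.9958 to 0.9980 between them. Among these 6 arrays, sgRNA-A replicate 3 lay far from the rest: its first principal component (36.4% of the variance) was -20.8, against -2.35 and -0.252 for the other sgRNA-A arrays and 4.08 or more for sgRNA-B. The epithelial markers of the line were present: all 11 measured ones lay above 4.44 log2 units, the level under which 95% of 355 olfactory receptor genes lay, which is taken here as the level of silent genes.

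CRISPRa acts on transcription near the site where the guide pairs, so guides aimed at the same locus can share the intended target while differing in strength and in other sites they meet. The 14q32 locus is imprinted and holds a large microRNA cluster, next to the coding genes DLK1, RTL1 and DIO3 and the long non-coding RNA MEG3. A microRNA recognises messenger RNAs mainly through its seed, bases 2 to 8 of the mature strand. The array held 52 microRNA precursors of the locus, which give 91 named mature strands with 81 distinct seeds in RefSeq's tables (GRCh38.p14), and 10 of these seeds are shared by more than 1 strand. The following strands, read 5′ to 3′ with the seed in capitals, are shown because they are the kind of RNA both guides were meant to raise and because each adjoining pair shares a seed.
hsa-miR-300: uAUACAAGggcagacucucucu
hsa-miR-381-3p: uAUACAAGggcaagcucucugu
hsa-miR-154-3p: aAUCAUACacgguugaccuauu
hsa-miR-487a-3p: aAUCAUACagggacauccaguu
hsa-miR-379-3p: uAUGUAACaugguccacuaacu
hsa-miR-411-3p: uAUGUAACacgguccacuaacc

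No gene of the targeted locus differed between the clones on these arrays. The MIR381 precursor measured 3.82 ± 0.02 log2 units with sgRNA-A and 3.74 ± 0.03 with sgRNA-B (mean ± SD, n = 3), against 3.74 ± 0.03 in control cells. MIR487A measured 3.70 ± 0.03 and 3.62 ± 0.02. MIR379 measured 3.61 ± 0.02 and 3.56 ± 0.05, and all of these levels lie below that of silent genes. Of the 52 precursors, 11 lay above it, and the differences over the 52 ran from -0.33 to 0.30. MIR412 measured 5.16 ± 0.26 with sgRNA-A against 4.86 ± 0.15 (adjusted p = 0.514), MIR541 5.04 ± 0.16 against 4.74 ± 0.17 (adjusted p = 0.452) and MIR134 4.99 ± 0.22 against 4.71 ± 0.18 (adjusted p = 0.489). For each of them the control mean lay between the clones, at 5.08, 4.85 and 4.86. MIR1247, at the -0.33 end of the range, went the other way. It measured 6.78 ± 0.45 with sgRNA-A against 7.11 ± 0.07 with sgRNA-B (limma adjusted p = 0.56), and 6.98 in control cells. For MIR541 the arrays of the clones did not overlap, and for MIR412 and MIR134 they did. In all, 39 of the 52 differences lay above 0, against 12464 of all 23931 genes, and the median of the 52 was 0.04. The arrays did not overlap for 6 higher with sgRNA-A and 0 higher with sgRNA-B (8.56% and 7.34% of all genes). Of the 102 probe sets from DLK1 to DIO3, 0 differed after adjustment in limma, 4 were higher with sgRNA-A and 1 with sgRNA-B at an unadjusted p below 0.05, and the lowest adjusted p was 0.341. Their median difference was 0.01, against 0.0045 over all genes, and 90 lay at or below the silent level. These probe sets are named for precursors, and mature strands were not analysed here. Among longer transcripts, DLK1 measured 4.29 with sgRNA-A against 4.22 with sgRNA-B, MEG3 3.55 against 3.64 and RTL1 3.82 against 3.81. DYNC1H1, a dynein heavy chain gene beyond the distal end of the locus, was the lowest in p of the 14 genes listed for the region. It measured 9.70, 9.80 and 9.70 on the sgRNA-A arrays and 9.47, 9.49 and 9.53 on the sgRNA-B arrays, and did not pass (adjusted p = 0.123).

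Elsewhere, 25 genes differed between the clones, 0.104% of those tested in limma: 10 were higher with sgRNA-A (0.0418%) and 15 higher with sgRNA-B (0.0627%). All 25 are protein-coding, and the 3 arrays of each clone did not overlap for any of them, which was so for 15.9% of all genes. Their absolute differences ran from 0.20 to 1.55, with a median of 0.55 against 0.06 over all genes. The 25 were picked by this same contrast on these same arrays, so neither the lack of overlap nor the size is separate evidence for them. MB, FBXO2 and ZNF605 differed at least 2-fold and 10 genes at least 1.5-fold. At an unadjusted p below 0.05, 1257 genes (5.25%) were higher with sgRNA-A, while 1254 (5.24%) were higher with sgRNA-B. Without sgRNA-A replicate 3, the count of 25 was 11, of which 9 were among the 25. Leaving out replicate 1 or 2 of sgRNA-A gave 9 and 8 genes, and leaving out replicate 1, 2 or 3 of sgRNA-B gave 6, 8 and 12.

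MB and HMOX1 stood higher with sgRNA-A. MB encodes myoglobin, a protein that binds oxygen, best known from muscle, and HMOX1 encodes the inducible haem oxygenase, which breaks haem down. MB measured 8.89, 8.91 and 9.02 log2 units on the sgRNA-A arrays, 7.36, 7.35 and 7.46 on the sgRNA-B arrays and 6.94, 7.28 and 7.42 on the control arrays. The sgRNA-A arrays thus lay far above both other groups, whose values overlapped. The difference of 1.55 (SE 0.10; a 2.93-fold level; limma adjusted p = 2.25e-05) was the largest of all 23931 genes in this comparison. HMOX1 measured 10.27, 10.28 and 10.16 on the sgRNA-A arrays, 9.71, 9.74 and 9.84 on the sgRNA-B arrays and 9.84, 9.77 and 9.75 in control cells. Here too the sgRNA-B and control arrays overlapped, and the sgRNA-A arrays lay above them (difference 0.47, SE 0.05; limma adjusted p = 0.0016). In RNA of a whole culture, more cells that express a gene and more of its RNA per cell cannot be told apart. Of 13 markers of striated muscle measured, 0 differed, 8 lay at or below the silent level, and their mean level was 4.40 to 4.43 on the sgRNA-A arrays and 4.43 to 4.48 on the sgRNA-B arrays. Of the other globin and haem genes listed, haem oxygenase HMOX2 measured 8.87 with sgRNA-A and 8.68 with sgRNA-B without passing (adjusted p = 0.332), so that 2 of 17 measured members were higher with sgRNA-A and 0 lower.

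The 250 bases before the annotated start of MB are shown because this gene had the largest difference. The core of the antioxidant response element, searched as TGACNNNGC on both strands, is in capitals and here read on the opposite strand; it begins 81 bases before the start. The region is chr22:35623355-35623604 on the minus strand (RefSeq, GRCh38.p14). The same core was found in 3013 of 27305 promoter windows of this length, and among the 19 differing genes with an entry in the table it was found in MB alone. Of all the motifs searched in these windows, this core was the only one found in MB. Among the same 19 genes, the TATA box (TATAAA) was found in 4, against 11.1% of all windows. The hypoxia response element core (ACGTG) was found in 3, against 18.7% of all windows. The interferon-stimulated response element was found in 1, DDX60 (3.07% of all windows). The AP-1 site and the sterol regulatory element core were found in 0 (4.16% and 0.875% of all windows). Whether any motif is more frequent among the differing genes was not tested. A match describes letters, not a bound site.
MB promoter: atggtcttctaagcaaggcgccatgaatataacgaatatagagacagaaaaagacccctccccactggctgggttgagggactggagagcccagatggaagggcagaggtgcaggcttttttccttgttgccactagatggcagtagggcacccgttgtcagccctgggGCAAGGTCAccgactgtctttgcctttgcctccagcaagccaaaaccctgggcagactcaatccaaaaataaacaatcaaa

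IGFBP4, a secreted protein that binds insulin-like growth factors and holds them from their receptor, was also higher with sgRNA-A. It measured 8.84, 8.83 and 8.76 on the sgRNA-A arrays, 7.93, 8.10 and 7.94 on the sgRNA-B arrays and 7.85, 7.65 and 7.79 on the control arrays (difference 0.82, SE 0.07; 1.77-fold; limma adjusted p = 0.000209). The sgRNA-B arrays lay just above the control arrays and the sgRNA-A arrays well above both. It was the member that differed among 20 measured genes of the insulin-like growth factor system. The receptor gene IGF1R measured 8.96 and 8.78 with sgRNA-A and sgRNA-B (adjusted p = 0.402), and the adaptor IRS2 8.32 and 8.08 (adjusted p = 0.252). S100A4, a calcium-binding protein linked to cell motility, measured 7.86, 7.89 and 8.13 on the sgRNA-A arrays, 7.49, 7.37 and 7.36 on the sgRNA-B arrays and 7.53, 7.70 and 7.70 in control cells (difference 0.55, SE 0.09; limma adjusted p = 0.0319). The control arrays lay between the clones, apart from both. Replicate 3 was the highest of the sgRNA-A arrays, and without it the adjusted p was 0.129. Of 19 measured S100 genes, 1 was higher with sgRNA-A and 0 lower.

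LAMB3, TNS4 and TGFBR1, genes of attachment and growth control, were higher with sgRNA-A by smaller amounts. LAMB3, a beta chain of the laminin that anchors epithelial cells to the basement membrane, measured 10.52, 10.54 and 10.43 with sgRNA-A and 10.17, 10.13 and 10.22 with sgRNA-B (difference 0.32, SE 0.04; limma adjusted p = 0.0128). Control cells lay higher than either clone, at 10.62 ± 0.05. TNS4, a tensin of focal adhesions, measured 10.95, 10.85 and 10.85 against 10.56, 10.62 and 10.65 (0.27, SE 0.04; limma adjusted p = 0.0256). TGFBR1, the type I receptor for TGF-beta, measured 9.05, 8.95 and 9.06 against 8.70, 8.66 and 8.70 (0.33, SE 0.05; limma adjusted p = 0.0313). For TNS4 and TGFBR1 the sgRNA-A arrays overlapped the control arrays (10.85 ± 0.01 and 8.94 ± 0.03), while the sgRNA-B arrays lay below them.

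Of 22 integrin and laminin genes, LAMB3 alone differed. Among the others, the integrin subunit ITGB5 measured 9.98 with sgRNA-A against 9.74, and ITGA2 10.51 against 10.31, with adjusted p of 0.138 and 0.186. NDRG1, induced by hypoxia in many cells, measured 10.08, 10.09 and 10.02 on the sgRNA-A arrays, 9.73, 9.71 and 9.67 on the sgRNA-B arrays and 9.79, 9.83 and 9.92 in control cells (0.36, SE 0.05; limma adjusted p = 0.00967). The control arrays again lay between the clones without touching either. It was the 1 member that differed of 30 measured hypoxia genes. ODC1, the enzyme that starts polyamine synthesis, measured 12.08, 12.01 and 12.04 against 11.82, 11.86 and 11.86 (0.20, SE 0.03; limma adjusted p = 0.0413), the smallest difference of the 25. FAM133B, the dimmest of the 25, measured 4.67, 4.72 and 4.80 with sgRNA-A, at 4.20 to 4.21 with sgRNA-B, and 4.59 ± 0.14 in control cells (0.53, SE 0.09; limma adjusted p = 0.0386). The sgRNA-B level of FAM133B lies below that of silent genes.

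FBXO2 showed the largest difference in the other direction. It encodes the F-box subunit of a ubiquitin ligase that recognises glycoproteins bearing high-mannose sugars. It measured 7.95, 7.81 and 7.95 on the sgRNA-B arrays, 6.61, 6.81 and 6.77 on the sgRNA-A arrays and 6.43, 6.45 and 6.63 on the control arrays (difference -1.17, SE 0.09; 2.26-fold higher with sgRNA-B; limma adjusted p = 8.35e-05). The sgRNA-B arrays lay above both other groups, and the sgRNA-A arrays overlapped the control arrays. NCCRP1, which has the same kind of F-box associated domain, was higher with sgRNA-B as well, at 9.08, 9.06 and 8.97 against 8.66, 8.71 and 8.66 (-0.36, SE 0.06; limma adjusted p = 0.0313). Of the 16 measured genes listed for F-box ligases, FBXO2 alone differed. FBXO6, which also recognises glycoproteins, measured 4.06 with sgRNA-A and 4.36 with sgRNA-B (adjusted p = 0.247), at or below the level of silent genes.

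CAVIN2, SLCO2A1, DPP4 and ARRB1 were higher with sgRNA-B. CAVIN2, a coat protein of caveolae, measured 9.19, 9.03 and 9.14 with sgRNA-B, 8.50, 8.52 and 8.40 with sgRNA-A and 8.26, 8.24 and 8.11 in control cells (-0.65, SE 0.07; 1.57-fold; limma adjusted p = 0.00102). Both clones lay above the control arrays, sgRNA-B further than sgRNA-A. It alone of 11 caveolin and cavin genes differed. SLCO2A1, the prostaglandin transporter, measured 7.46, 7.50 and 7.45 with sgRNA-B and 6.79, 6.92 and 6.84 with sgRNA-A (-0.62, SE 0.09; limma adjusted p = 0.0145), with control cells at 6.86 ± 0.14. The prostaglandin synthase PTGES measured 8.54 with sgRNA-B and 8.18 with sgRNA-A without passing (adjusted p = 0.194). DPP4, a cell-surface peptidase that trims hormones such as the incretins, measured 8.91, 8.93 and 8.90 against 8.56, 8.61 and 8.45 (-0.37, SE 0.06; limma adjusted p = 0.0319). ARRB1, the beta-arrestin that stops signalling by G protein-coupled receptors, measured 8.75, 8.68 and 8.80 against 8.30, 8.13 and 8.17 (-0.54, SE 0.07; limma adjusted p = 0.011). For SLCO2A1, DPP4 and ARRB1, the sgRNA-A arrays overlapped the control arrays and the sgRNA-B arrays did not.

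MUC1, TJP3, ANXA9 and PCDH19 were higher with sgRNA-B as well. MUC1, a membrane mucin, measured 9.64, 9.65 and 9.50 with sgRNA-B, 9.07, 9.14 and 9.23 with sgRNA-A and 9.20, 9.15 and 9.18 in control cells (-0.45, SE 0.06; limma adjusted p = 0.00963). TJP3, a scaffold protein of tight junctions, measured 7.15, 7.07 and 7.01 with sgRNA-B and 6.55, 6.38 and 6.51 with sgRNA-A (-0.60, SE 0.09; limma adjusted p = 0.0282). For both, the sgRNA-A arrays overlapped the control arrays. ANXA9, an atypical annexin, measured 6.25, 5.99 and 5.99 with sgRNA-B, 5.45, 5.18 and 5.38 with sgRNA-A and 5.61, 5.60 and 5.49 in control cells (-0.74, SE 0.12; limma adjusted p = 0.0324). Its sgRNA-B arrays lay above and its sgRNA-A arrays below the control arrays. PCDH19, a protocadherin that mediates adhesion between cells, measured 8.55, 8.43 and 8.28 with sgRNA-B, 7.53, 7.64 and 7.76 with sgRNA-A and 8.67, 8.60 and 8.56 in control cells (-0.77, SE 0.08; 1.71-fold; limma adjusted p = 0.00122). Both clones lay below the control arrays, sgRNA-A by far the lower. Of 32 measured protocadherins, PCDH19 alone differed.

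The lists that hold MUC1 and TJP3, and the epithelial list, contained no further gene that differed. Of 20 measured tight junction genes, TJP3 alone differed, and the claudin CLDN3 had a difference of -0.27 (adjusted p = 0.25). Of 26 mucin and gastrointestinal genes, MUC1 alone differed. The carcinoembryonic antigen gene CEACAM5 measured 9.02 with sgRNA-A and 9.32 with sgRNA-B, against 11.05 in control cells, and did not pass between the clones (adjusted p = 0.0944). CEACAM1 measured 8.29 and 8.68 (adjusted p = 0.0944), whereas the mucin-folding gene AGR2 measured 7.84 and 7.61 (adjusted p = 0.402). In the list of 27 epithelial genes 0 differed in limma. At an unadjusted p below 0.05, 6 of these were higher with sgRNA-B and 3 with sgRNA-A (5.24% and 5.25% of all genes).

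The remaining genes higher with sgRNA-B have roles in metabolism, signalling and defence. DHRS3, which turns retinal back into retinol, measured 7.42, 7.21 and 7.34 with sgRNA-B, 6.71, 6.74 and 6.88 with sgRNA-A and 6.37, 6.42 and 6.28 in control cells (-0.55, SE 0.09; limma adjusted p = 0.0413). PHGDH, the first enzyme of serine synthesis, measured 10.33, 10.39 and 10.27 against 9.96, 10.04 and 10.06 (-0.31, SE 0.05; limma adjusted p = 0.0413), with control cells at 9.84 ± 0.08. For both genes the clones lay above the control arrays, sgRNA-B further. SPX, the precursor of the peptide hormone spexin, measured 8.26, 8.44 and 8.22 with sgRNA-B and 7.83, 7.65 and 7.70 with sgRNA-A (-0.58, SE 0.08; limma adjusted p = 0.0112). The zinc finger gene ZNF605 measured 7.05, 6.92 and 7.34 against 6.31, 5.76 and 6.10 (-1.05, SE 0.17; 2.07-fold; limma adjusted p = 0.0386). For SPX and ZNF605 the sgRNA-B arrays overlapped the control arrays (8.22 ± 0.08 and 7.09 ± 0.33), and the sgRNA-A arrays lay below them. ZNF605 also varied most among replicates, with an SD of 0.28 in sgRNA-A.

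Set against control cells, the 25 differences were not all of one kind. For 12 of the 25 the sgRNA-A arrays overlapped the control arrays and the sgRNA-B arrays lay apart from them, and for 4 (MB, HMOX1, SPX and ZNF605) it was the reverse. For 9 both clones lay apart from the control arrays, 6 in the same direction and 3 in opposite directions (ANXA9, NDRG1 and S100A4). Over all genes, the arrays of sgRNA-A lay apart from the control arrays for 17.8% and those of sgRNA-B for 20.2%. Because the 25 were picked for a difference between the clones, these shares of unselected genes are no yardstick for those counts. The control mean lay between the means of the clones for 17 genes, on the far side of sgRNA-A for 5 and on the far side of sgRNA-B for 3.

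**Figure D1:**
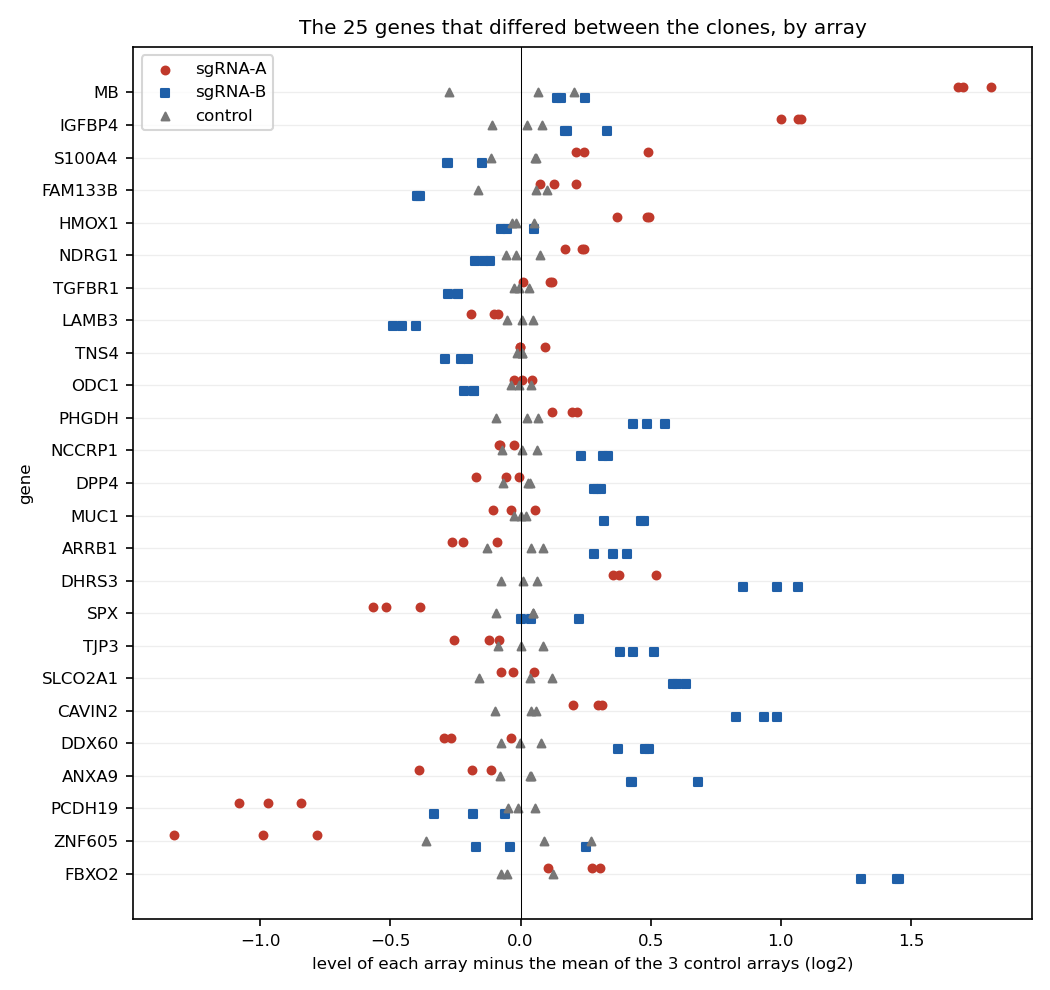
Level of each array minus the mean of the 3 control arrays (log2) for the 25 genes that differed between the clones, ordered by the difference; circles are sgRNA-A, squares sgRNA-B and triangles control arrays. The circles and squares of a gene do not overlap in any of the 25 rows, and the triangles of MB and HMOX1 overlap the squares while those of MUC1 and SLCO2A1 overlap the circles.

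Of the 25 genes, 6 kept an adjusted p below 0.05 whichever of the 9 arrays was left out: MB, IGFBP4 and HMOX1, higher with sgRNA-A, and FBXO2, CAVIN2 and PCDH19, higher with sgRNA-B. Their highest adjusted p in limma was 0.0224, for HMOX1 without sgRNA-B replicate 1. S100A4, FAM133B, TNS4, NCCRP1, TJP3, SLCO2A1 and ZNF605 lost the call without any 1 of the 6 guide arrays, with adjusted p up to 0.153, 0.188, 0.184, 0.188, 0.184, 0.0954 and 0.184. TGFBR1, ODC1, DPP4, DHRS3 and ANXA9 lost it also without control replicate 1 (up to 0.164, 0.253, 0.184, 0.246 and 0.188), and PHGDH without control replicate 1 or 3 as well (up to 0.198). NDRG1 lost it without any guide array but sgRNA-A replicate 3 (up to 0.0623), and DDX60 without any but sgRNA-A replicate 2 (up to 0.0896). LAMB3 and MUC1 lost it without sgRNA-A replicate 1 or 2 or sgRNA-B replicate 1 or 2 (up to 0.0901 and 0.0766). ARRB1 lost it without sgRNA-A replicate 2 or 3 or sgRNA-B replicate 1 or 3 (up to 0.0766), and SPX without sgRNA-A replicate 2 or 3 or sgRNA-B replicate 1 or 2 (up to 0.0726). With no trend of the variance with level in limma, S100A4, LAMB3, TNS4, ODC1, PHGDH, NCCRP1, DPP4 and ZNF605 lost the call (adjusted p = 0.081, 0.0874, 0.146, 0.224, 0.158, 0.0572, 0.0619 and 0.151). With the 6 guide arrays fitted alone, TGFBR1, DHRS3 and ANXA9 did (0.0556, 0.0647 and 0.0801), and with robust variances ZNF605 (0.0563).

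**Figure D2:**
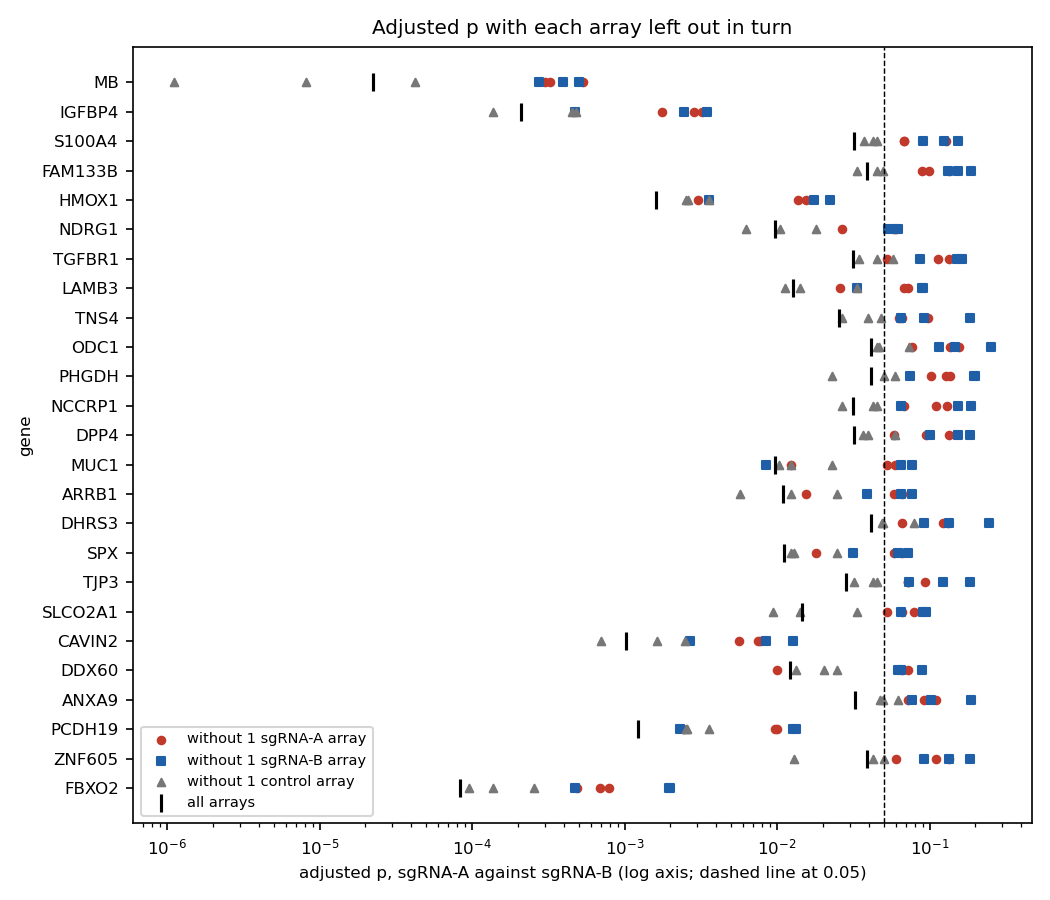
Adjusted p of sgRNA-A against sgRNA-B in limma (log axis) for the 25 genes with all arrays (black tick) and with each array left out in turn (circles, squares and triangles for an sgRNA-A, sgRNA-B or control array left out); the dashed line is 0.05. All points of MB, IGFBP4, HMOX1, FBXO2, CAVIN2 and PCDH19 lie left of the line.

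Of 36 interferon response genes measured, 1 was higher with sgRNA-B in limma and 0 with sgRNA-A. At an unadjusted p below 0.05, 15 were higher with sgRNA-B and 0 with sgRNA-A, against 5.24% and 5.25% of all genes. In all, 29 of the 36 differences lay below 0, against 11466 of all 23931 genes. Their median was -0.14 and ran from -0.18 to -0.12 as each array was left out. This group comprises sensors of viral RNA and antiviral effectors that interferon switches on together. DDX60, a helicase that supports the sensing of viral RNA, measured 7.47, 7.57 and 7.59 with sgRNA-B, 6.83, 7.05 and 6.80 with sgRNA-A and 7.02, 7.17 and 7.09 in control cells (-0.65, SE 0.09; 1.57-fold; limma adjusted p = 0.0121). It was the member that passed, and its sgRNA-A arrays overlapped the control arrays. HERC5, the ligase that attaches ISG15 to proteins, measured 8.88, 8.90 and 8.76 with sgRNA-B and 8.54, 8.51 and 8.50 with sgRNA-A (adjusted p = 0.0554). IFI6, an antiviral membrane protein, measured 9.40 ± 0.15 with sgRNA-B and 8.92 ± 0.13 with sgRNA-A (adjusted p = 0.0758), with control cells at 9.53 to 9.83. IFIT3, which binds viral RNA with other IFIT proteins, measured 6.62, 6.76 and 6.63 against 6.27, 6.04 and 6.16 (adjusted p = 0.123), with control cells below both at 5.63 to 5.92. The RNA sensor IFIH1 measured 8.23 with sgRNA-B and 7.89 with sgRNA-A (adjusted p = 0.159). The control arrays thus lay below both clones for IFIT3, above the sgRNA-A arrays for IFI6 and overlapped the sgRNA-A arrays for HERC5 and DDX60.

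The stretches just before the starts of DDX60, HERC5 and IFI6 are shown because these are the 3 members with the lowest p whose promoters hold the interferon-stimulated response element. It was searched as GAAA, any pair of bases and GAAA again, on both strands in the 250 bases before each start, and matches, some overlapping, are in capitals. It was found in 18 of the 30 interferon genes with an entry in RefSeq's table (GRCh38.p14) and in 3.07% of all 27305 windows of that length. Of the 14 of these genes with an unadjusted p below 0.05, 8 held it. The regions are chr4:168318753-168318912 (minus strand), chr4:88456959-88457118 (plus strand) and chr1:27672193-27672352 (minus strand).
DDX60: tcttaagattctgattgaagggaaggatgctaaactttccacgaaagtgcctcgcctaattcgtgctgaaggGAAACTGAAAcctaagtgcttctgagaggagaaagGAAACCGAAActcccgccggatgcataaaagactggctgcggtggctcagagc
HERC5: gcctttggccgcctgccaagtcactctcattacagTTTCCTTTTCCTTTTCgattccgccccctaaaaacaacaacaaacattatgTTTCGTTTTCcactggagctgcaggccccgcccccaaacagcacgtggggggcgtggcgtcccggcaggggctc
IFI6: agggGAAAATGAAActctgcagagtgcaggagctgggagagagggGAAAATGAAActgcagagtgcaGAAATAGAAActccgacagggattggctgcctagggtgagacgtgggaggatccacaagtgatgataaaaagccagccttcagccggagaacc

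Cholesterol synthesis genes, which the factor SREBP2 controls as a group, held 0 of 20 measured members that differed in limma. At an unadjusted p below 0.05, 7 were higher with sgRNA-B (5.24% of all genes) and 0 with sgRNA-A (5.25% of all genes), and the median was -0.09. The desaturase gene SC5D measured 8.64, 8.62 and 8.60 with sgRNA-B and 8.45, 8.20 and 8.15 with sgRNA-A (adjusted p = 0.159). INSIG1, which holds back SREBP2 processing, measured 7.43 and 7.03 (adjusted p = 0.333), and DHCR7, the last enzyme of the pathway, 10.26 and 10.09 (adjusted p = 0.352). Of 15 fatty acid synthesis genes 0 differed (median -0.04). At the unadjusted level, 2 were higher with sgRNA-B and 0 with sgRNA-A (5.24% and 5.25% of all genes). Of 15 replication-dependent histone genes, 0 differed. At an unadjusted p below 0.05, 5 were higher with sgRNA-B and 1 with sgRNA-A (5.24% and 5.25% of all genes). The median of these histone genes was -0.13. Without sgRNA-B replicate 2 that median was -0.07. Linker histone gene H1-2 measured 11.60 with sgRNA-A and 11.76 with sgRNA-B (adjusted p = 0.214).

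In the retinoid and vitamin D list, DHRS3 was higher with sgRNA-B, 0 of 27 were higher with sgRNA-A, and the median was -0.06. CRABP2, which carries retinoic acid to its nuclear receptor, measured 8.75, 8.59 and 8.51 with sgRNA-B and 8.18, 8.22 and 8.44 with sgRNA-A, and did not pass (adjusted p = 0.18). Retinaldehyde dehydrogenase ALDH1A3 measured 10.77 with sgRNA-B and 10.62 with sgRNA-A (adjusted p = 0.3), and the vitamin D hydroxylase CYP24A1 7.65 and 7.39 (adjusted p = 0.319). At an unadjusted p below 0.05, 6 of the list were higher with sgRNA-B and 1 with sgRNA-A (5.24% and 5.25% of all genes).

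In the opposite direction, 22 plasminogen activation and serpin genes had a median of 0.09, with 8 higher with sgRNA-A and 2 with sgRNA-B at an unadjusted p below 0.05 (5.25% and 5.24% of all genes), and 0 that differed in limma. The plasminogen activator PLAT measured 12.81 with sgRNA-A and 12.65 with sgRNA-B (adjusted p = 0.0965), and tissue factor gene F3 12.40 and 12.28 (adjusted p = 0.187). The growth factor receptor gene EGFR measured 9.95, 10.03 and 10.03 on the sgRNA-A arrays, 9.78, 9.67 and 9.80 on the sgRNA-B arrays and 10.07 to 10.15 in control cells, and did not pass (adjusted p = 0.0893). In the list of ERBB and MET receptors and ligands 0 of 19 differed, with 4 higher with sgRNA-A and 0 with sgRNA-B at the unadjusted level. Mesenchymal genes had a median of 0.04 (0 of 28 differed), and FN1, the matrix protein fibronectin, measured 9.97 and 9.77 (adjusted p = 0.129).

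Among glutathione and NRF2 target genes, HMOX1 alone of 30 measured members differed, and the median was 0.005. The cystine transporter gene SLC7A11 measured 6.86 with sgRNA-A and 6.33 with sgRNA-B (adjusted p = 0.0965), whereas GSTP1, a glutathione transferase, measured 9.67 and 9.95 (adjusted p = 0.224). Of the lysosomal genes, 0 of 26 differed. GPNMB, a glycoprotein of lysosomes and melanosomes, measured 7.94, 7.82 and 7.62 with sgRNA-B and 7.16, 7.29 and 6.97 with sgRNA-A, with control cells at 7.83 to 8.22 (adjusted p = 0.0554).

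Other groups differed little. Of 36 genes of G2/M and mitosis, 0 differed in limma, and the median was -0.01. At an unadjusted p below 0.05, 2 were higher with sgRNA-A and 1 with sgRNA-B. Over all genes these shares were 5.25% and 5.24%, to be set beside the unadjusted counts that follow as well. Of 39 DNA replication genes 0 differed (0 and 1 at the unadjusted level; median 0.0012), and of 26 Notch pathway genes 0 differed (2 and 2; median -0.0041). Of 23 genes that process microRNAs or act with them in silencing, 0 differed (2 higher with sgRNA-A and 0 with sgRNA-B at the unadjusted level; median -0.0013), and of 24 imprinted genes outside the locus 0 differed (3 and 0; median 0.0033). In all, 18 of the 55 lists held a gene that differed, each with 1 such gene except the globin and oxygen list with 2, and 17 of the 25 genes lay in a list. HMOX1 and MUC1 each lay in 2 lists. The lists were chosen with earlier results of these data known, so these counts do not measure how the 25 genes group.

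IGFBP4 and TNS4 are immediate neighbours among the genes measured, in RefSeq order, and both were higher with sgRNA-A, by 0.82 and 0.27. TOP2A on the other side of IGFBP4 measured a difference of -0.01 (adjusted p = 0.927), and CCR7 beyond TNS4 one of -0.11 (adjusted p = 0.783). HMOX1 and MB lie 3 places apart, with MCM5 and RASD2 between them. RASD2, a small GTPase, measured a difference of 0.41 (SE 0.10; adjusted p = 0.191), at a level of 5.23 with sgRNA-A, and the replication helicase gene MCM5 one of 0.08 (adjusted p = 0.627). Of the 20 nearest measured genes around MB, HMOX1 alone differed, and 9 had an unadjusted p below 0.05, against 10.5% of all genes. Their directions were mixed, with the apolipoproteins APOL1 and APOL2 at -0.36 each (adjusted p = 0.252 and 0.414). APOL1, APOL3 and APOL5, all among the 9, had mean levels of 4.37, 3.74 and 3.68, below that of silent genes. Of the 20 around FBXO2, 0 differed in limma; an unadjusted p below 0.05 was found for 2, a share close to that of all genes (10.5%). No run of 3 differing genes of the same direction was found among 10 neighbours.

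**Figure D3:**
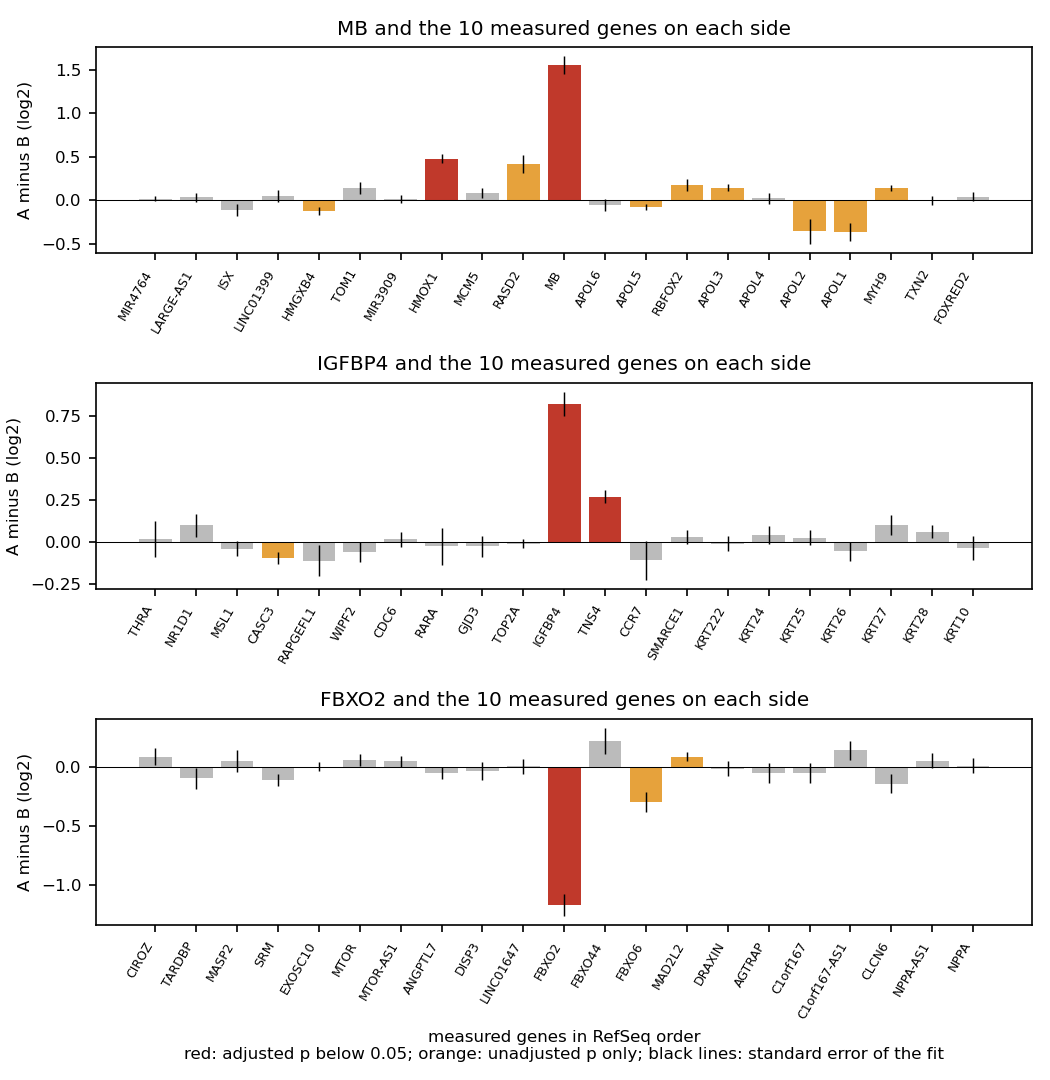
Difference between the clones (sgRNA-A minus sgRNA-B, log2, with the standard error of the fit) for MB, IGFBP4 and FBXO2 and the 10 measured genes on each side in RefSeq order; red bars passed an adjusted p of 0.05 in limma and orange bars an unadjusted p of 0.05 only. HMOX1, 3 places from MB, and TNS4, next to IGFBP4, are red, and no neighbour of FBXO2 is.

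Over windows of 21 neighbouring measured genes, the median furthest from 0 was -0.15, from ZNF14 to ZNF429, a stretch in which 18 of the 21 genes are ZNF zinc finger genes. Of these 21, 18 had a difference below 0, 3 had an unadjusted p below 0.05 in that direction and 0 passed the adjusted test (lowest adjusted p 0.0965). A window from SNRPN to SNORD116-29, in the imprinted SNORD116 cluster of small nucleolar RNAs, had a median of -0.15, with 9 members higher with sgRNA-B and 2 with sgRNA-A at the unadjusted level and 0 that differed. A window from TEX22 to IGHD2-15, at the immunoglobulin heavy chain genes, had a median of 0.14, with 4 members higher with sgRNA-A and 1 with sgRNA-B. A window of histone genes from H4C2 to H1-3 had a median of -0.13, with 7 higher with sgRNA-B and 1 lower. The window from ZC3H3 to MIR661 had a median of 0.12, with 6 higher with sgRNA-A and 0 lower. In none of these 5 windows did a gene pass the adjusted test in limma. The 5 were picked because their medians lay furthest from 0 among windows that share no gene, so uneven counts follow from that choice. The 10.5% of all genes with an unadjusted p below 0.05 is therefore no yardstick for them.

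Markers of other cell types gave no difference between the clones in limma. Of 15 immune, 10 endothelial, 12 fibroblast and smooth muscle and 11 neuroendocrine and neuronal markers measured, 0 in each list passed, and 10, 7, 8 and 7 lay at or below the level of silent genes. The mean level of the immune list was 4.74 to 4.77 on the sgRNA-A arrays and 4.73 to 4.77 on the sgRNA-B arrays. Of 15 alveolar and airway markers 0 passed, with 4 higher with sgRNA-A and 0 with sgRNA-B at an unadjusted p below 0.05, and a mean level of 4.55 to 4.65 against 4.49 to 4.55. Of 11 neuroendocrine and neuronal markers, 3 were higher with sgRNA-A (5.25% of all genes at that level) and 1 was higher with sgRNA-B (5.24%). Of 11 markers of the malignant epithelium, MUC1 was higher with sgRNA-B in limma. At an unadjusted p below 0.05, 4 of the 11 were higher with sgRNA-B and 0 with sgRNA-A (5.24% and 5.25% of all genes). The keratin gene KRT18 measured 11.24 with sgRNA-A and 11.42 with sgRNA-B (adjusted p = 0.255). Their mean level was 10.97 to 11.02 on the sgRNA-A arrays, 11.06 to 11.13 on the sgRNA-B arrays and 11.07 to 11.09 on the control arrays. The part of these levels in the differences above was not tested.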

How the data were processed

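Total RNA of 9 cultures was hybridised to Affymetrix arrays. The deposited table holds log2 values per probe set that the authors made with RMA (version not stated), as the submitters' processing notes record. RMA equalises the distributions of the arrays, and all 9 column medians were 4.91. Probe sets were named through the supplied annotation table (23934 with 1 symbol, 799 with none); for 3 symbols with several probe sets the brightest was kept. Gene order came from RefSeq GRCh38.p14, of which 23893 records matched.

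A model with a mean per group was fitted to all 9 arrays with lmFit and eBayes(trend=TRUE) in limma 3.58.1 (R 4.3.3), with 6 residual and 7.27 prior degrees of freedom; the contrast was sgRNA-A minus sgRNA-B. The fit was tested on simulated data. The smallest two-sided exact permutation p of 3 arrays against 3 is 0.1, so no such test is given. The text names the 15 largest differences in each direction among genes that passed (all 25), and up to 4 members of each list that passed; other members and the windows were chosen after their values were seen. The genes, the 55 lists and the comparison were chosen with earlier results of these data known. Alternatives were other fits, filters and normalizations and each array left out.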

Additional observations from a re-analysis of the deposited data

Results flagged for a closer look

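For 3 genes the clones lay on opposite sides of the control arrays, every sgRNA-A array on one side and every sgRNA-B array on the other, and limma's test of the difference between the clones passed. ANXA9 was lower with sgRNA-A and higher with sgRNA-B (difference -0.74, adjusted p = 0.0324). NDRG1 (0.36, adjusted p = 0.00967) and S100A4 (0.55, adjusted p = 0.0319) were higher with sgRNA-A and lower with sgRNA-B. These genes come from the 25 picked for a difference between the clones. ANXA9 and S100A4 lost the call in limma whichever guide array was left out (adjusted p up to 0.188 and 0.153). NDRG1 lost it without any guide array but sgRNA-A replicate 3 (limma adjusted p up to 0.0623). Some gaps to the control arrays were small. ANXA9 reached 5.45 with sgRNA-A against a lowest control array of 5.49, and S100A4 7.49 with sgRNA-B against 7.53.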

How the results depend on the processing

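None of the 25 genes changed direction under any alternative run, and 6 passed under all of them. Because the arrays of the clones did not overlap for any of the 25, a change of direction could hardly have occurred. The count of 25 genes (10 higher with sgRNA-A, 15 with sgRNA-B) ranged from 6 to 30 when 1 array was left out (3 to 11 and 3 to 19). It was 39 without the dimmest 50% of genes (24 higher with sgRNA-B), where fewer genes are tested, and 10 with a minimum of 1.5-fold (2 and 8). With the replicate number as a block it was 34, of which 24 were higher with sgRNA-B and 22 among the 25 (ODC1, PHGDH and DHRS3 lost the call, at adjusted p of 0.0607, 0.0744 and 0.0691 in limma). The numbers did not pair the samples: same-numbered arrays of sgRNA-A and sgRNA-B deviated from their group means with correlations of 0.0046, -0.145 and -0.0059. With the 6 guide arrays alone it was 26, of which 22 were among the 25. Repeated quantile normalization, median centring and averaging probe sets each gave the same 25 genes. The arrays were already equalised and only 3 symbols had several probe sets, so these settings could change little. The locus count was 0 in every alternative. Among lists, 11 medians moved by more than the spread of arrays in at least 1 setting. Of the 55 list medians, 28 took the opposite sign in at least 1 setting, all within 0.05 of 0 with all arrays. Among those printed, these were the NRF2, DNA replication, Notch, microRNA processing and imprinted lists, so no direction is read from them; the largest turn was that of secreted epithelial defence, 0.04 to -0.21 without the dimmest 50%. The number of arrays limits the precision, and 90 of the 102 probe sets of the locus lay at or below the level of silent genes.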

Other observations

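Of the 799 probe sets without a gene symbol, 4 differed between the clones in limma (0.501%), all higher with sgRNA-A, by 0.25 to 0.36 on the log2 scale. They were fitted apart and adjusted over 799 tests, so this share cannot be set against the 0.104% of named genes. An unadjusted p below 0.05 was found for 97 (12.1%), against 10.5% of named genes. These are not named here.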
